A study of Bos taurus with 8 samples.

Results

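The names miR-2284 to miR-2487 form a block of microRNAs (miRNAs), short RNAs that guide repression of messenger RNAs, most of which were first described in cattle. Of the 744 bovine miRNA names on the arrays, 280 with 195 different numbers lay in this block, by a rule on names that was set with earlier results of these data known. The numbers of 6 names in the same range, miR-2305, miR-2374, miR-2406, miR-2412, miR-2413 and miR-2478, were left out of the block and stayed with the other 464 names. All 6 were detected and together gave 34.99% to 49.6% of the summed signal of an array, so that the low signal of the block described below is in part set by leaving them out. The miR-2284 and miR-2285 names made up 49 of the 280, 29 and 20 respectively, and 231 members remained outside this family.

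The RNA came from plasma exosomes, small membrane vesicles released by cells, of Japanese Shorthorn steers raised on grass without grain. In the study, the grazing group was on pasture until 4 mo, and the housed group was kept in a barn with cut grass. Each of the 8 arrays held 1 pool of 3 steers, 1 array for each label at 0, 1, 2 and 4 mo, so no value has a replicate error. At 0 mo no steer had yet been on the experimental feeding, and single animals cannot be resolved within a pool. The slide was shared by all 8 arrays, 1 column per label and 1 row per month, so that slide position cannot be told apart from label or month. The summed signal of the detected miRNAs differed between arrays, from 45507 on the grazing 1 mo array to 157696 on the housed 0 mo array.

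The deposited labels and the signal columns published with the study name the feeding groups in opposite ways. Every detected miRNA of each housed array lay within 1% of 1 of the columns G-1 to G-4, which the legend gives as grazing, and every one of each grazing array within 1% of 1 of the remaining columns, A-1 to A-4. The legend names no A columns and lists H-1 to H-4 besides G-1 to G-4, so that the A columns are taken for those of the housed cattle. Arrays are called housed or grazing here by their deposited labels only, and each direction between them is the opposite when it is read by the columns.

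A miRNA is cut from a hairpin precursor, and either arm of the hairpin, named 5p or 3p, can give the mature strand. Many bovine numbers of this block entered the miRNA catalogue from sequencing of cattle tissue, and the miR-2284 and miR-2285 names are a family of many near copies spread over the genome. A bovine name has a few probes on the array, each complementary to its miRNA, so that C in a probe stands for G in the RNA and A for U. The probe of a name is here its longest one. The mature RNA sequences were not used here, and the probe sequences of the array design are shown in their place, 5′ to 3′.

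The probes of the family names that were detected, and of their nearest relatives, are shown first because they differ at few bases. Capitals mark the longest stretch shared with the probe of miR-2284l, and in miR-2284l itself the stretch shared with miR-2284x.
miR-2284l: aAAAACCCGAACcaac
miR-2284d: gAAAAACCCtaacgaac
miR-2284x: AAAACCCGAACgaact
miR-2284y: gAAAAACCCGAACga
miR-2284a: AAAAACCCcaacgaac
The next pair shows that a miR-2284 and a miR-2285 name can be each other's opposite strand, with the 14 bases that pair in capitals.
miR-2285e: gcCAAAAAGTTCGTTC
miR-2284q: tccGAACGAACTTTTTG

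The relations were general within the family. Of the 29 miR-2284 probes, 23 shared a stretch of at least 10 bases with another miR-2284 probe, and of the 20 miR-2285 probes, 16 did so with another miR-2285 probe. For 15 of the 29 miR-2284 probes such a stretch was shared with the reverse complement of a miR-2285 probe. Among the 231 members outside the family, 29 shared such a stretch with another of them. The array design placed 12 of the 48 placed family probes on at least 2 chromosomes, on up to 7. Of these 12, 3 were among the 29 miR-2284 names. Of the 231 other members 4 were placed on at least 2 chromosomes, and of 463 names outside the block 41 (8.86%). A signal at such a probe does not name 1 gene. The family was rich in A and T, with a median of 41.2% G and C in the probe, against 53.3% in the other members and 50% in the other bovine names. In the miR-2284 probes A alone made up a median of 50% of the bases.

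Few members of the block gave signal in plasma exosomes. The detection flag of the scanner software was set on at least 1 array for 36 of the 280 members (12.9%), where all bovine names together gave 31.0% and the 464 names outside the block 42.0%. On all 8 arrays it was set for 16 members (5.71%), against 19.2% of all bovine names and 27.4% of those outside the block. When most spots of a miRNA had to be well above background, 23 members (8.21%) passed on at least 1 array and 5 on all 8. Of the 464 names outside the block, 138 (29.7%) then passed on at least 1 array and 90 on all 8. The names outside the block with numbers below 1000, together with let-7, were detected in 151 of 340 cases (44.4%). These shares are counts of names, and no test was made on them.

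Within the block the family was almost empty. Its names were detected in 2 of 49 cases (4.08%), and the rest of the block in 34 of 231 (14.7%). The number of members detected was 33, 20, 19 and 20 at 0, 1, 2 and 4 mo on the housed arrays, and 26, 17, 20 and 23 on the grazing arrays. Of the 464 names outside the block the housed arrays had 193, 165, 147 and 162, and the grazing arrays 141, 132, 143 and 137. The housed 0 mo array thus had the most in both sets, and it was also the brightest array. The grazing 0 mo array was next among the members, but not among the names outside the block. Without the housed 0 mo array, 30 members were detected on at least 1 array, and without the grazing 0 mo array, 33. Of the 464 names outside the block, 176 and 193 were detected under the same omissions, against 195 with all 8 arrays. The 47 family names that were never detected had signals between -3.36 and 2.17, at most 1.11 times the error estimate of the scanner software. Their background-subtracted signals thus lay on both sides of 0. A flag that is not set gives only a bound, and all never-detected members of the block stayed at or below a signal of 7.91, the value of miR-2368-3p.

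**Figure D1:**
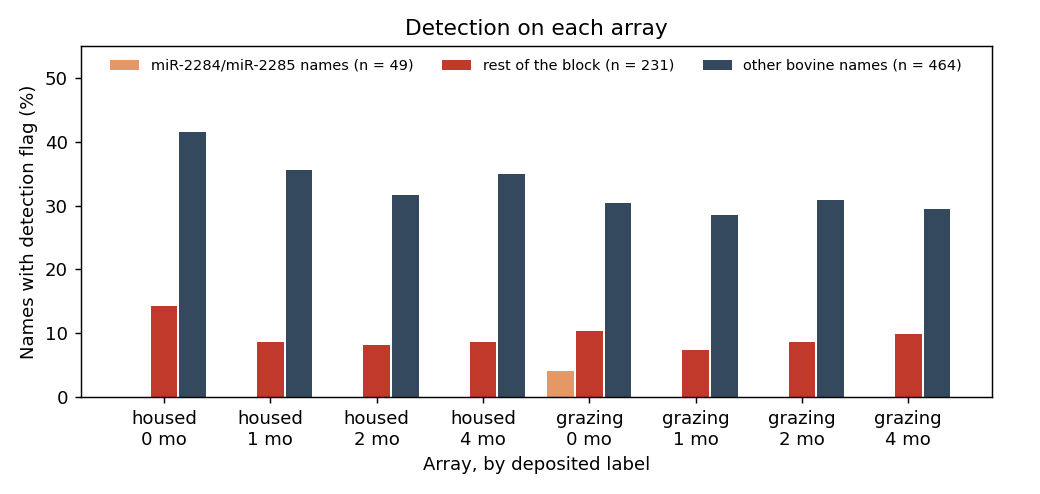
Share of names with the detection flag (percent, y axis) on each array (x axis) for the 49 miR-2284 and miR-2285 names, the other 231 members of the block and the 464 other bovine names. The family bar is above 0 on the grazing 0 mo array alone, at 4.08%, and the other members stay between 7.36% and 14.3%.

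The 2 detected family names were miR-2284d and miR-2284l, both on the grazing 0 mo array alone. The signal of miR-2284d was 0.888, 1.99, 3.36 and 1.87 at 0, 1, 2 and 4 mo on the housed arrays, and 17.7, 1.17, 1.26 and 1.67 on the grazing arrays. For miR-2284l the signals were 0.604, 0.917, 1.24 and 0.921 on the housed arrays, and 12.0, -0.038, 1.15 and 0.558 on the grazing arrays. The grazing 0 mo array stood alone for both, at 7.61 and 5.64 times the error estimate. On this array the 17-base probe of miR-2284d was well above background in 20 of its 20 spots and the 16-base probe in 14 of 20, whereas for miR-2284l the counts were 7 of 20 and 3 of 20. When most spots of a miRNA had to be well above background, miR-2284d passed and miR-2284l did not. The related probes of miR-2284x, miR-2284y and miR-2284a, shown above, had signals of -0.876, -2.07 and 1.74 on the same array, and their names were not detected. The array design places the probe of miR-2284d on chromosome 15, chr15:43545919-43545934 of UMD_3.1, and that of miR-2284l on chromosome 14, chr14:39024831-39024845, intervals that are 1 base shorter than the probes. STAU2, which encodes an RNA-binding protein, is the gene around miR-2284l in the gene order of ARS-UCD2.0.

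In the block as outside it, detection on a single array occurred only at 0 mo. It was found for 9 of the 280 members (3.21%) and 21 of the 464 other names (4.53%). On the housed 0 mo array alone, 6 members were detected, and on the grazing 0 mo array alone, 3. The third of the latter was miR-2313-5p, with a signal of 18.2 there and signals between -3.10 and -0.322 on the other 7 arrays. Among the 6, miR-2366 was the brightest, with a signal of 30.2 on the housed 0 mo array and between -1.02 and 2.48 elsewhere. The signals of miR-2292, miR-2300a-5p, miR-2360, miR-2426 and miR-2474 on that array were 12.3, 8.12, 6.36, 14.6 and 12.8. For miR-2300a-5p the signals of the other arrays, 5.24 to 7.10, lay close to this value, so that the flag rather than the signal set it apart. Outside the block, 19 names were detected on the housed 0 mo array alone and 2 on the grazing 0 mo array alone. With 1 array for each label and month, such single signals have no second pool to be compared with.

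**Figure D2:**
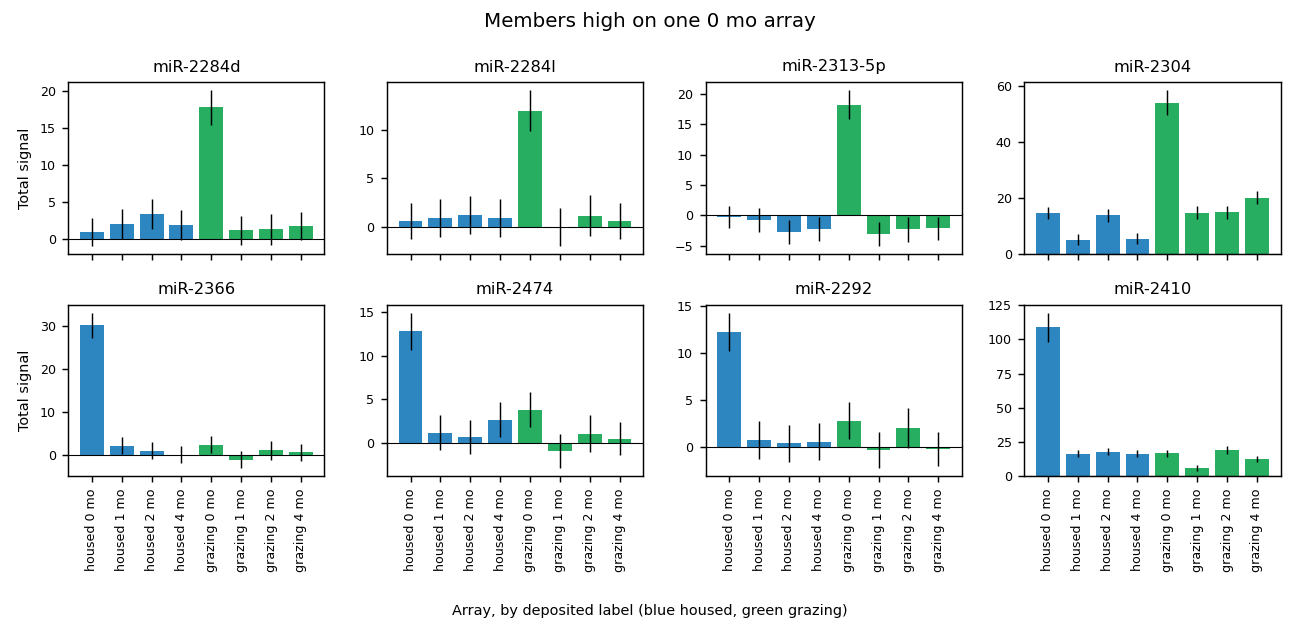
Total signal (y axis, arbitrary units, each panel with its own scale from a bar base at 0) of 8 members on the 8 arrays (x axis), with bars of 1 error estimate of the scanner software. In the top row the grazing 0 mo array is highest, at 17.7 for miR-2284d and 54.1 for miR-2304, and in the bottom row the housed 0 mo array, at 30.2 for miR-2366 and 109 for miR-2410.

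Detection in the block was found mainly with probes rich in G and C. Of the members with less than 40% G and C in the probe, 0 of 59 were detected, and the counts were 5 of 77 between 40 and 50%, 6 of 63 between 50 and 60% and 11 of 53 between 60 and 70%. At 70% or more, 14 of 28 members were detected (50%). The other bovine names started at 31 of 97 (32.0%) below 40% and reached 30 of 49 (61.2%) at 70% or more. In the lowest bands the block and the other names were thus far apart, and in the highest the shares lay closest, although no test of this difference was made. The family names lay almost all below 50% G and C, where 0 of 43 and 3 of 46 of the other members were detected below 40% and between 40 and 50%, so that the 2 of 31 detected family names between 40 and 50% (6.45%) were close to the share of the other members there (6.52%).

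**Figure D3:**
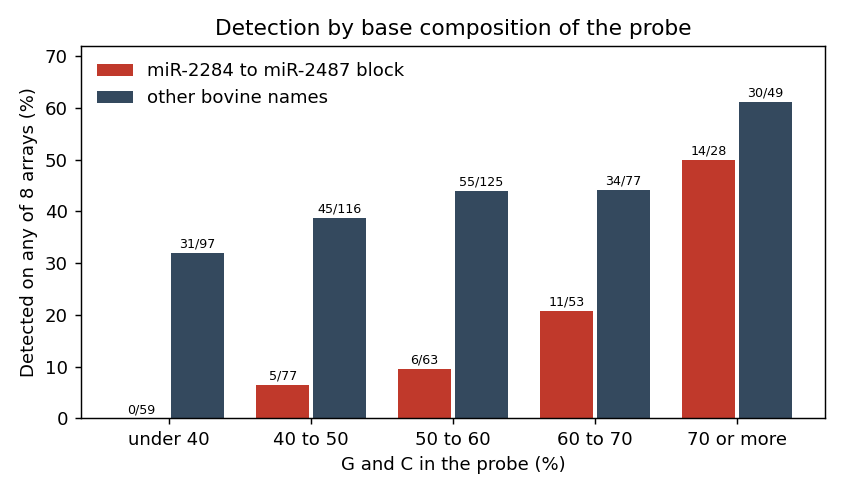
Share of names detected on any of the 8 arrays (percent, y axis) by G and C content of the probe (x axis, percent, each band including its lower bound) for members of the block and other bovine names, with detected over all names above each bar. The block rises from 0/59 to 14/28, the other names from 31/97 to 30/49.

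Of these bases it was C in which the detected members were richer. In the 34 detected members outside the family the median was 48.5% C, against 30.0% in the 197 that were not detected, while G made up a median of 16.03% and 18.8%. The other bovine names differed less, with 27.8% C in the detected and 25% in the undetected names. A run of CCC, which is read here on the probe strand only and stands for GGG in the RNA, occurred in 17 of the 36 detected members (47.2%) and 45 of the 244 undetected ones (18.4%). In the names outside the block it occurred in 50 of 195 (25.6%) and 40 of 269 (14.9%). Detected members outside the family also had shorter probes, with a median of 14 bases against 16. The probes of the 10 members with the highest mean scaled signal show this, with the exceptions of miR-2391, which has no C, and miR-2373-3p and miR-2415-3p, in which less than 40% was C. The probes of 9 of these 10 follow, with each C in capitals.
miR-2328-3p: tggCCCCCtCCC
miR-2455: tCCCtgCCtCCCC
miR-2316: CCCgCCgCagtC
miR-2428: aCCtCCgCCgCa
miR-2348: ggCCgCtCCaCa
miR-2373-3p: ggCtCttCCaCgtg
miR-2407: CCagCCCttCCCa
miR-2410: tCaCaggtCCtCCtC
miR-2391: gggggggagtttttt
Some undetected members were rich in C as well, such as miR-2392 with 64.3% and miR-2418 with 53.8%. For contrast with the probes above, miR-2393 was an undetected member with little C, and its signal lay between 1.35 and 2.51 on the 8 arrays.
miR-2393: aaaagaaaaCaaaaaatCta

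The block without the 6 names left out held little of the signal. The detected members together had between 1.02% and 2.02% of what all detected miRNAs of an array gave in summed signal, with a median of 1.35%. Together with those 6 names the median was 45.0%. The highest share was on the grazing 0 mo array and the lowest on the grazing 1 mo array, with error estimates of 0.066 and 0.040 percentage points. With normexp background correction of the spots, the share of the members was 2.04% to 3.37%, with a median of 2.24%. Because probes differ in binding strength, such shares are of brightness and not of molecules. miR-2328-3p alone gave 39.3% to 46.6% of the signal of the block. Its signal was 1184, 461, 332 and 538 at 0, 1, 2 and 4 mo on the housed arrays, and 470, 203, 407 and 288 on the grazing arrays. It was thus highest at 0 mo under both labels. The gene around it in ARS-UCD2.0 is ZNF821, a zinc finger gene. The signal of miR-2455 was 250, 119, 100.8 and 153 on the housed arrays, and 138, 79.1, 112 and 110 on the grazing arrays. The array design places its probe at chr7:17936006-17936017 of UMD_3.1. Both names were highest on the housed 0 mo array.

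The 16 members detected on all 8 arrays were all outside the family. Besides miR-2328-3p and miR-2455 they were miR-2286, miR-2288, miR-2291, miR-2316, miR-2348, miR-2373-3p, miR-2382-3p, miR-2388-3p, miR-2391, miR-2407, miR-2410, miR-2415-3p, miR-2428 and miR-2454-5p. Their median signals over the arrays lay between 8.35 for miR-2288 and 434 for miR-2328-3p. Before scaling, 13 of the 16 were highest on the housed 0 mo array and 15 were lowest on the grazing 1 mo array, the arrays with the highest and the lowest summed signal. For this reason the courses below were read after scaling.

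**Figure D4:**
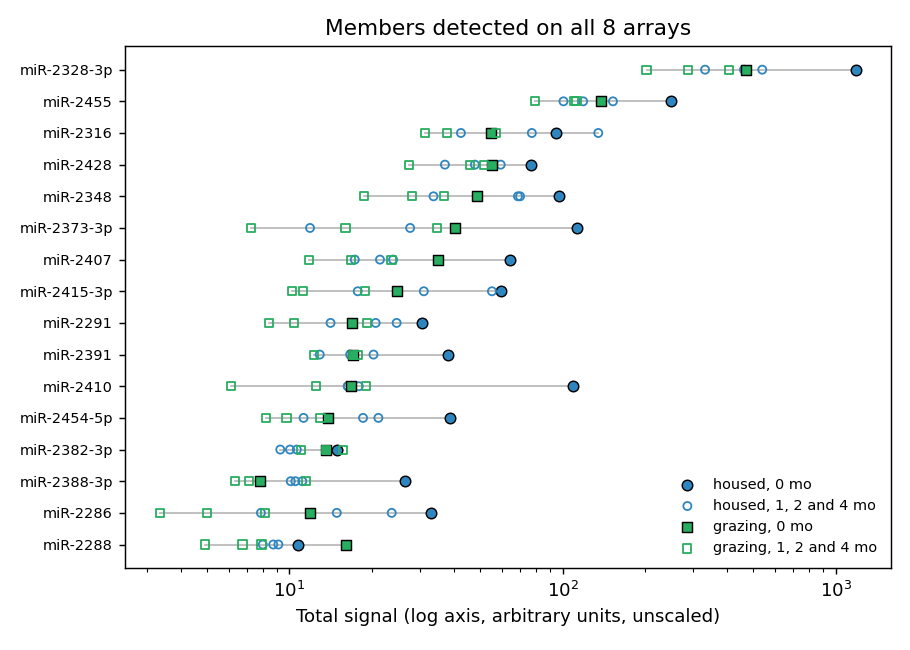
Total signal before scaling (x axis, log scale, arbitrary units) of the 16 members detected on all 8 arrays (y axis), with the 0 mo arrays as filled symbols and the later months as open ones. The filled circle of the housed 0 mo array is the highest symbol in 13 of 16 lines, with 1184 for miR-2328-3p.

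Where both arms of a hairpin were on the array, 1 arm at most was detected in the block. Of 36 such hairpins in the block, 10 had 1 detected arm and 0 had both. Among the other bovine names, 7 of 38 such hairpins had both arms detected and 18 had 1. The 3p arm was the detected one for miR-2328, miR-2373, miR-2382, miR-2388, miR-2415 and miR-2425, and the 5p arm for miR-2313, miR-2436, miR-2454 and miR-2486. For miR-2328 the highest signal was 1184 for the 3p arm and -0.896 for the 5p arm, and the probes held 83.3% and 76.9% G and C. Whether G and C content had a part in which arm was detected was not tested. The detected and the undetected arm held 76.9% and 75% G and C in miR-2415, and 76.9% and 69.2% in miR-2454. They held 83.3% and 64.3% in miR-2382, and 71.4% and 52.9% in miR-2425. In miR-2486 they held 71.4% and 47.1%, and in miR-2436 83.3% and 76.9%. In all of these, as in miR-2328, the detected arm was the richer. The detected arm was the poorer in G and C in miR-2373, with 64.3% against 76.9%, in miR-2313, with 60% against 69.2%, and in miR-2388, with 52.9% against 56.3%.

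Some numbers of the block are also in use for human or pig miRNAs. The human numbers are those of miR-2355, miR-2392 and miR-2467, and the pig numbers those of miR-2320, miR-2366, miR-2411 and miR-2483. Of their 12 bovine names, 1 was detected, miR-2366, against 35 of the other 268 members. The highest signals of the others were 7.79 for miR-2411-3p and 1.97 for miR-2392, and their flags were not set on any array. The members were also set against gene positions. In ARS-UCD2.0, 26 of 34 matched detected members lay within a protein-coding gene (76.5%), and 172 of 225 undetected ones (76.4%).

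Changes over time were taken on the log2 scale, after division of the signals by the 90th percentile of each array, as the mean over 1, 2 and 4 mo relative to 0 mo under the same label. Most of the 16 members detected on all arrays were lower at the later months, 13 on the housed arrays and 14 on the grazing arrays by their mean change, where 71 and 49 of all 143 miRNAs detected on all arrays were. Their median mean change was -0.49 on the housed arrays and -0.49 on the grazing arrays, whereas the 127 other names detected on all arrays had medians of 0.03 and 0.17. A value below that of 0 mo at all 3 later months was found for 10 of the 16 on the former and 12 on the latter, against 47 (32.9%) and 33 (23.1%) of all 143. Of the 39 other names with at least 60% G and C in the probe, 19 and 18 had such a course. The median change of the members was -0.67, -0.44 and -0.23 at 1, 2 and 4 mo on the former and -0.73, -0.62 and -0.27 on the latter. Both 0 mo arrays are shared by all of these values, and with 1 array each, no test of these changes was made. Among other names with at least 60% G and C in the probe the medians were -0.38 and -0.17 (n = 39), and among the members with such probes -0.40 and -0.52 (n = 13). With normexp background correction of the spots, which adds an offset, the median of the members was -0.03 and -0.22.

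A mean change of -1 or lower was found for 3 of the 16 members on the housed arrays, where 5.59% of all 143 miRNAs reached it, and for 4 on the grazing arrays, where 4.90% did. On the housed arrays these were miR-2410, miR-2373-3p and miR-2407, and on the grazing arrays miR-2373-3p, miR-2288, miR-2286 and miR-2407. The counts of members are small, and each rests on 1 array at 0 mo. In miR-2286, 1 scaled value was raised to the floor. The signal of miR-2373-3p was 113, 27.7, 11.9 and 40.4 on the housed arrays, and 40.3, 7.22, 16.04 and 34.6 on the grazing arrays. After scaling, its change at 4 mo on the grazing arrays was 0.03, so that it was back at its 0 mo level there, while it was -1.08 on the housed arrays. miR-2407 had mean changes of -1.003 and -1.004, with error estimates of 0.15 and 0.18.

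**Figure D5:**
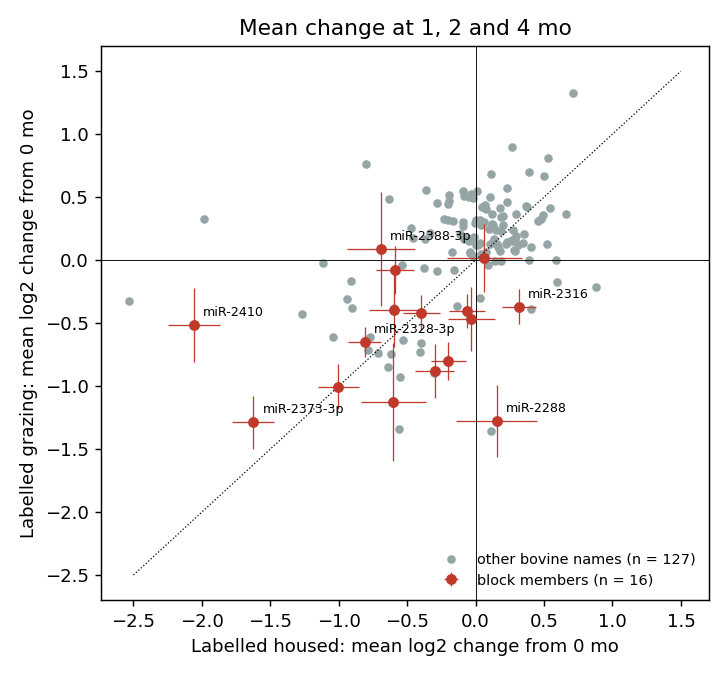
Mean log2 change at 1, 2 and 4 mo from 0 mo on the housed arrays (x axis) and the grazing arrays (y axis) for the 143 miRNAs detected on all 8 arrays, with members of the block in red and bars of 1 error estimate. Most members lie in the lower left part, at medians of -0.49 and -0.49, while the other names gather around 0.03 and 0.17, and among the members miR-2410 and miR-2288 lie farthest from the dotted line of equal change.

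In mean change from 0 mo, the members that differed most between the labels were miR-2410 and miR-2288. The signal of miR-2410 was 109, 16.4, 17.9 and 16.3 on the housed arrays and 16.9, 6.11, 19.1 and 12.5 on the grazing arrays. The single high value at 0 mo set its mean change of -2.06 on the former, against -0.52 on the latter, a difference (grazing minus housed) of 1.54 with a standard error of 0.44. Across all 143 miRNAs limma gave this difference an adjusted p of 0.143, with the spread taken from the 3 later months alone, since each 0 mo value is 1 array, and it ranged from 0.143 to 0.847 over 13 settings of the processing. For miR-2288 the signals were 10.745, 9.10, 7.98 and 8.72 on the housed arrays and 16.1, 4.90, 6.73 and 7.90 on the grazing arrays. Its difference was -1.43 with a standard error of 0.48 and an adjusted p of 0.256 by limma, between 0.185 and 0.887 over the settings. On 3 of the housed arrays, 0 mo included, its scaled signal lay below the floor, the lowest scaled level that every array could measure, and was raised to it, so that its housed changes at 1 and 4 mo are not determined in either direction. Neither difference passed the threshold of 0.05.

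By limma, 0 of the 16 members passed for this difference in mean change, where 2 of all 143 miRNAs passed (1.40%). The difference was positive for 6 members and negative for 10. This balance depended on the processing. Of the 16, 12 were positive without scaling, 9 without the 2 mo arrays and 8 with let-7g scaling. With the 90th percentile taken over the miRNAs detected on all arrays, 3 were positive. The median difference over all 143 miRNAs moved too. It was 0.15 here, 0.72 without scaling, 0.17 without the 2 mo arrays, 0.25 with let-7g scaling and -0.29 with this percentile. The median of the members was -0.03, 0.55, 0.16, -0.008 and -0.46 in the same order, below that of all miRNAs each time. Next to miR-2410 the largest positive differences were 0.78 for miR-2388-3p, 0.51 for miR-2391, 0.34 for miR-2373-3p and 0.20 for miR-2454-5p. After miR-2288 the largest negative ones were -0.69 for miR-2316, -0.60 for miR-2348, -0.58 for miR-2415-3p and -0.52 for miR-2286. The standard errors of these lay between 0.39 and 0.50, and all adjusted p were from 0.802 to 0.961. None of these 8 passed.

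When the labels were compared at 1, 2 and 4 mo only, with month as a block, 2 of the 16 members passed, where 16 of the 143 miRNAs did (11.2%), close to the share in the members. The later arrays of a label are pools of the same 3 steers, so that label cannot be told apart from the animals pooled, and p measures the spread between months. Both were higher on the grazing arrays, miR-2382-3p by 1.25 (standard error 0.26, adjusted p = 0.0059 by limma) and miR-2391 by 0.77 (standard error 0.21, adjusted p = 0.0265 by limma). Over the settings of the processing the adjusted p by limma was 0.0059 to 0.518 for the former, with a difference above 0 in all 13. That difference ranged from 0.42 without scaling to 1.73 without the 2 mo arrays, and was 0.56 with normexp. For the latter the adjusted p was 0.0265 to 0.896. Its difference was above 0 in 11 of 12 settings and -0.07 without scaling. The signal of miR-2382-3p was 14.9, 9.25, 10.04 and 10.6 on the housed arrays and 13.6, 11.1, 13.6 and 15.7 on the grazing arrays. The nearest later values, 10.6 at housed 4 mo and 11.1 at grazing 1 mo, had error estimates of 2.12 and 2.11. Before scaling, these values were thus not apart beyond the error. The scaled value of miR-2382-3p at 1 mo on the housed array was raised to the floor. The difference in mean change from 0 mo was -0.05 for miR-2382-3p. After scaling, a gap of similar size between the labels was thus already present at 0 mo, before the experimental feeding. For miR-2391 this difference in mean change was 0.51. The signal of miR-2391 was 38.1, 16.7, 12.9 and 20.3 on the housed arrays and 17.0, 12.3, 17.8 and 17.1 on the grazing arrays. Its later housed and grazing values overlapped before scaling. Without scaling and with quantile normalization 0 members passed. The 90th percentile by which signals were divided was 109, 83.2, 50.7 and 82.5 at 0, 1, 2 and 4 mo on the housed arrays. On the grazing arrays it was 40.7, 31.2, 56.1 and 34.2, and its part in these differences was not tested. Without the 1 mo arrays and without the 4 mo arrays 0 members passed as well, and without the 2 mo arrays miR-2382-3p alone.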

How the data were processed

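Plasma exosomal RNA pools were hybridized to custom Agilent miRNA arrays, and the authors quantified them with Feature Extraction 10.7.3.1. The deposited scanner output holds background-subtracted intensity values, error estimates and detection flags, and the deposited series table holds a ratio of signal to 1 factor per array. Total signals were divided by the 90th percentile of their array over all 744 miRNAs, set to a floor of 0.114 where undetected or lower, and taken to log2. In the alternative with normexp (offset 50) no floor was set. The 143 miRNAs detected on all 8 arrays were fitted with limma 3.58.1 in R 4.3.3 on terms for month, label and the later months of the label, or on month and label at 1, 2 and 4 mo, each with 2 residual degrees of freedom, and p-values were Benjamini-Hochberg adjusted over all 143 at 0.05. On simulated data both fits recovered 100% of 20 changes of 2 in size over noise of SD 0.2 with 1 false call each. Smaller changes and other noise levels were not simulated. The largest difference among the members was 1.54, for miR-2410, so that the recovery of differences of their size is not known. The number of arrays limits the precision. Members, lists and named miRNAs were chosen with earlier results of these data known. Named were the 10 brightest members, detected family names, the 5 largest differences between labels in each direction, miRNAs past a threshold, numbers shared with human or pig, and names detected on 1 array. Coordinates are the design's placements on UMD_3.1 of probes with 1 placement. Genes around members come from the gene order of ARS-UCD2.0, and no annotation of UMD_3.1 was used, so exon or intron is not analysed here. Other steps used Python 3.11.15, numpy 2.4.6 and pandas 2.3.3.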

Additional observations from a re-analysis of the deposited data

Results flagged for a closer look

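At every later month miR-2388-3p was below its 0 mo value on the housed arrays and slightly above it on the grazing arrays, but the latter differences lay within the error. Its log2 change from 0 mo was -0.86, -0.29 and -0.93 at 1, 2 and 4 mo on the housed arrays and 0.07, 0.09 and 0.11 on the grazing arrays. The mean change was -0.69 with an error estimate of 0.25 on the former and 0.09 with an error estimate of 0.45 on the latter. The difference in mean change was 0.78, with a standard error of 0.42, and limma gave it an adjusted p of 0.802, so that it did not pass. With normexp correction the difference was -0.00019. Its signal was 26.5, 11.1, 10.1 and 10.5 on the former and 7.83, 6.30, 11.5 and 7.10 on the latter. The direction is the opposite when the groups are read by the published columns.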

How the results depend on the processing

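Calls on label differences and the count of detected names depended on the processing, whereas the median change of the members stayed below that of all miRNAs in each of the 13 settings. When most spots had to be well above background, 23 members were detected on any array, 5 on every array and 1 in the family. Outside the block this rule left 138 names on any array and 90 on every array, against 195 and 127 by the flag. Without the grazing 0 mo array, an alternative chosen after seeing the data, 0 names were detected in the family. Of the 464 names outside the block, 193 were detected without this array. The median share of the signal was 2.24% with normexp correction and 2.14% without miR-2478 and miR-2412 in the denominator. The median change of the members on the housed arrays was -0.12 with the 75th percentile, -0.16 with the 90th percentile over the miRNAs detected on all arrays, -0.67 with let-7g, -1.12 without scaling, -0.33 in the authors' table and -0.029 with normexp. On the grazing arrays it was -0.27 with the 75th percentile and -0.22 with normexp. Relative to the median of all miRNAs tested, the members stayed between -0.59 and -0.03 on the former and between -0.81 and -0.28 on the latter. At 1, 2 and 4 mo, 7 members passed with let-7g, 3 with the percentile over miRNAs detected on all arrays (of which miR-2286 was lower on the grazing arrays), 1 with the 75th percentile, in the authors' table, with the looser filter and without the 2 mo arrays, and 0 without scaling, with normexp, with quantile normalization, without the 1 mo arrays and without the 4 mo arrays. Among all miRNAs, 33 passed with let-7g, 29 with the percentile over miRNAs detected on all arrays, 24 with normexp, 5 with the 75th percentile, 10 in the authors' table, 8 with the looser filter, 3 without scaling, 0 with quantile normalization, and 1, 2 and 0 without the 1, 2 and 4 mo arrays. For the difference in mean change, 2 of all miRNAs passed also with the mean of processed spot signals, and 0 under the other alternatives. For miR-2382-3p the difference in mean change kept its sign in 10 of 13 settings, from -0.47 to 0.54. Signs of the difference in mean change turned also for miR-2286 without scaling (0.12), for miR-2373-3p with the percentile over miRNAs detected on all arrays (-0.10) and without the 4 mo arrays (-0.053), for miR-2388-3p with normexp (-0.00019), and for miR-2454-5p with that percentile (-0.23) and normexp (-0.046), and that of the difference at 1, 2 and 4 mo for miR-2391 without scaling (-0.075). The cause was not tested. Signals near background limit what can be said of most of the block.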

Other observations

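Of the 7 detected members with their highest signal before scaling on the grazing 0 mo array, 5 had probes made mostly of A and C, a feature chosen after these values were seen, and 2 did not. Of the 53 members with at least 80% A and C in the probe, 5 were detected on any array, and all 5 (miR-2284d, miR-2284l, miR-2288, miR-2304 and miR-2486-5p) had their highest signal before scaling on that array. Of the 31 detected members with less A and C, 2 did, miR-2313-5p and miR-2425-3p. Outside the block the counts were 2 of 16, miR-574 and miR-664, and 3 of 179. For names detected on this array alone, such as miR-2284d, miR-2284l, miR-2313-5p and miR-664, the filter on detection fixed the result. Among names also detected on another array the counts were 3 of 3 and 1 of 30 in the block, and 1 of 15 and 2 of 178 outside it. The contrast among the members was smaller after division by the 90th percentile of each array, when 5 of 5 and 10 of 31 detected members, and 9 of 16 and 15 of 179 detected names outside the block, were highest on that array. Among names also detected on another array these counts were 3 of 3 and 9 of 30, and 8 of 15 and 14 of 178. The signal of miR-2304 was 14.5, 5.04, 13.7 and 5.32 at 0, 1, 2 and 4 mo on the housed arrays and 54.1, 14.7, 14.8 and 20.1 on the grazing arrays. The probes of miR-2304, miR-2288 and miR-2486-5p are shown with each C in capitals, and the first holds A and C only.
miR-2304: aCaCaCaCaaCCaCaC
miR-2288: aaaCCaCaCaCCtaCtaC
miR-2486-5p: CCCaCCCtaCaCCg
The signals of miR-2486-5p on the grazing and housed 0 mo arrays were 15.8 and 13.7 before scaling, and 0.389 and 0.126 after it. With 1 pool of 3 steers behind the array, no test of this pattern was made.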
